A study of Arabidopsis thaliana with 39 samples.

Results

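Late embryogenesis abundant (LEA) genes were followed in seeds of Arabidopsis thaliana during the induction of secondary dormancy, across time points, among single seeds, between genotypes and in dry seed pools. The members are 50 of the 27444 nuclear protein-coding genes, chosen by gene identifier from the LEA families. They comprise 17 genes of the LEA_4 family, 10 dehydrins, 6 genes with a seed maturation protein (SMP) domain, 4 of LEA_3, 3 each of LEA_1, LEA_2 and PvLEA18, 2 Em genes (LEA_5) and 2 AtM genes. One further LEA gene, AT3G02480, is not among them.

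LEA proteins are small, very hydrophilic and mostly unstructured in water. They build up in the embryo when the seed dries at the end of maturation, and many are induced by drought, cold or salt in other tissues. In seeds, abscisic acid drives many of these genes through bZIP factors such as ABI5, which bind ABRE elements with an ACGT core, together with ABI3, which recognises RY elements. LEA mRNAs are stored in the dry seed and their loss accompanies germination.

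Single after-ripened Col-0 seeds, all from the same seed pool, were taken after 1 h in water at 22 °C (1h), after 1, 3, 5 and 7 days in darkness at 30 °C (1d, 3d, 5d and 7d), and after 24 h of recovery at 22 °C that followed the 7 days (7d24h). Recovery also brought the seeds back into light, given as long days in the labels and as constant light in the study's methods, so that effects of temperature and of light cannot be told apart at 7d24h. Each time point has 3 libraries of 32 seeds, and a control at 7d (7dPS) has 3 libraries of 32 aliquots of mixed seed extracts. In a separate experiment, seeds of dog1-4, which carries a mutant allele of the dormancy gene DOG1, and of Col-0 were sampled at 3d and 7d24h, with 3 libraries of 32 seeds per genotype and time point, and 3 dry pools of each genotype were sequenced in bulk, each from seeds of 2 plants. The labels name no seed pools for the genotype experiment, so that a difference between dog1-4 and Col-0 seeds cannot be told apart from one between the plants they grew on, and p-values measure only the spread between these libraries.

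Libraries of the time course held 731423 to 3132901 unique molecular identifiers (UMIs) on nuclear protein-coding (genic) transcripts, those of the genotype experiment 1737013 to 4993365, and dry pools 836376 to 3378782 counts. After removal of seeds with under 5000 genic UMIs, 665 of 672 and 382 of 384 seeds remained, and no 2 seeds had identical counts. DOG1 had 5.61, 3.59 and 7.79 CPM (counts relative to the scaled total of the library) in dry dog1-4 pools, against 68.5, 79.7 and 69.9 CPM in dry Col-0 pools. Transcripts of 12 seed storage and oil body genes took 1.82% to 20.0% of genic UMIs in every single-seed library. In the dog1-4 library 3 at 3d, 8 neighbouring seeds (columns 9 to 16) stood apart from all others of their group for all 9 green seedling markers: AT1G67090, a small subunit of Rubisco, had 458 to 1758 UMIs in these seeds and at most 19 in the others. In library 3 of the time course at 3d, columns 21 to 32 held 931 to 15086 CPM of 3 endosperm genes, nearly all of it AT2G27380. The other 20 seeds of that library had 79.4 to 1025 CPM. The 64 seeds of the other libraries at 3d had 36.5 to 2602 CPM, so that the lowest of these columns overlapped them. Both sets of columns were noticed after the values were seen, and values without these seeds or without the library are given beside the results they change. Without these columns the LEA share of library 3 at 3d was 7.14% in dog1-4, against 6.42% with them, and 6.25% in the time course, against 6.88% with them.

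The 300 bases upstream of the annotated start of each gene (RefSeq, TAIR10.1) were searched on both strands for the ABRE core ACGTG, the RY element CATGCA and the drought-responsive DRE core CCGAC, with overlapping matches counted once. The ABRE core was in the window of 36 of 50 members (72.0%) and of 25.6% of 27443 genes, and 24 members (48.0%) held it at least 2 times, against 5.86% of all genes. The DRE core was in 19 members (38.0%, against 13.9% of all genes) and the RY element in 10 (20.0%, against 10.3%). A match is a description of the letters and not a shown binding site. Windows of 4 members are printed because the results turn on these genes: EM6 (chr2:16780369-16780668, minus strand), EM1 (chr3:19214422-19214721, plus strand) and RAB18 (chr5:26519448-26519747, minus strand) are abundant genes that fell during recovery, and SAG21 (chr4:1047106-1047405, minus strand) is the member called higher there. Capitals mark the ABRE core on either strand, with 2 matches for EM6, 2 for EM1, 3 for RAB18 and none for SAG21, which has no RY or DRE match either.
EM6: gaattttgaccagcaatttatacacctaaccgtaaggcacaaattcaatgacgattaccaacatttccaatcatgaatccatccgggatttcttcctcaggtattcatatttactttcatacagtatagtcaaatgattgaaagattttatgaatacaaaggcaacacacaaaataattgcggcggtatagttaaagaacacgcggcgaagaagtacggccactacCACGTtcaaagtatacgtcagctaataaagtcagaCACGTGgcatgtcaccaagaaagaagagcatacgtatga
EM1: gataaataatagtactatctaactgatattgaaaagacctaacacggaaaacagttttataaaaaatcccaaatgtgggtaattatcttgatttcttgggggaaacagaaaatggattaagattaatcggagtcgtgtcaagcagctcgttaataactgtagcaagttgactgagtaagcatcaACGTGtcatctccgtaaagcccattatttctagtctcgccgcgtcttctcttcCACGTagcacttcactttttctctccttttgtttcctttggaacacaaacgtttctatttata
RAB18: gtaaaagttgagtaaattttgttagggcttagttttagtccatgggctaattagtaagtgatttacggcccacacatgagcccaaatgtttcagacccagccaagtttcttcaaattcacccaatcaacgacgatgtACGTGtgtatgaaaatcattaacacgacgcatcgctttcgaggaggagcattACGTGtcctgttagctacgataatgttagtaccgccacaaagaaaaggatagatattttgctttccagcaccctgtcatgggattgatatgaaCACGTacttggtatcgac
SAG21: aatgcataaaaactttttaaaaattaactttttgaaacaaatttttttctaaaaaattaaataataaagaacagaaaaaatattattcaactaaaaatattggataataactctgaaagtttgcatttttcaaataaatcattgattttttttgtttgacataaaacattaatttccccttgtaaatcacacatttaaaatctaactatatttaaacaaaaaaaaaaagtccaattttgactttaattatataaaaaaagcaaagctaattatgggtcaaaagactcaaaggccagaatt

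The members lie on all 5 chromosomes (10, 17, 9, 8 and 6 on chromosomes 1 to 5). They include 7 pairs of neighbouring genes, among them COR47 and ERD10, COR15B and COR15A, LTI30 and XERO1, M17 and M10, and AT3G22490 and ECP31. Reads were assigned by strand, and SAG21 and UNE15 overlap another gene on the same strand, so that their values are uncertain.

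Summed over the 50 members, LEA transcripts took 11.3%, 10.2% and 12.3% of genic UMIs in the 3 libraries at 1h (mean over seeds), 6.95%, 6.85% and 5.54% at 1d, 5.06%, 5.86% and 6.88% at 3d, and 5.49%, 5.11% and 6.12% at 5d. The share was 9.17%, 9.05% and 8.91% at 7d and 4.4%, 4.66% and 4.22% at 7d24h. The libraries at 1h did not overlap those of any later time point, and those at 7d24h lay below all others of the time course. The share at 7d lay above that at 5d, at 3d and at 1d in every library. In Col-0 seeds of the genotype experiment it was already 9.75%, 9.26% and 8.78% at 3d. UMIs outside genic transcripts had library medians of 12.5% to 13.9% there, against 62.5% to 73.0% at 3d and 26.2% to 31.2% at 7d in the time course. The part of these UMIs in the higher share at 7d was not tested. In the pool-split control the LEA share was 9.93%, 9.02% and 9.28%, beside the 7d values. UMIs outside genic transcripts had library medians of 51.4% to 57.3% in that control. These are shares of the transcripts captured, in which less LEA RNA per cell, fewer cells with LEA RNA and more RNA of other genes cannot be told apart.

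**Figure D1:**
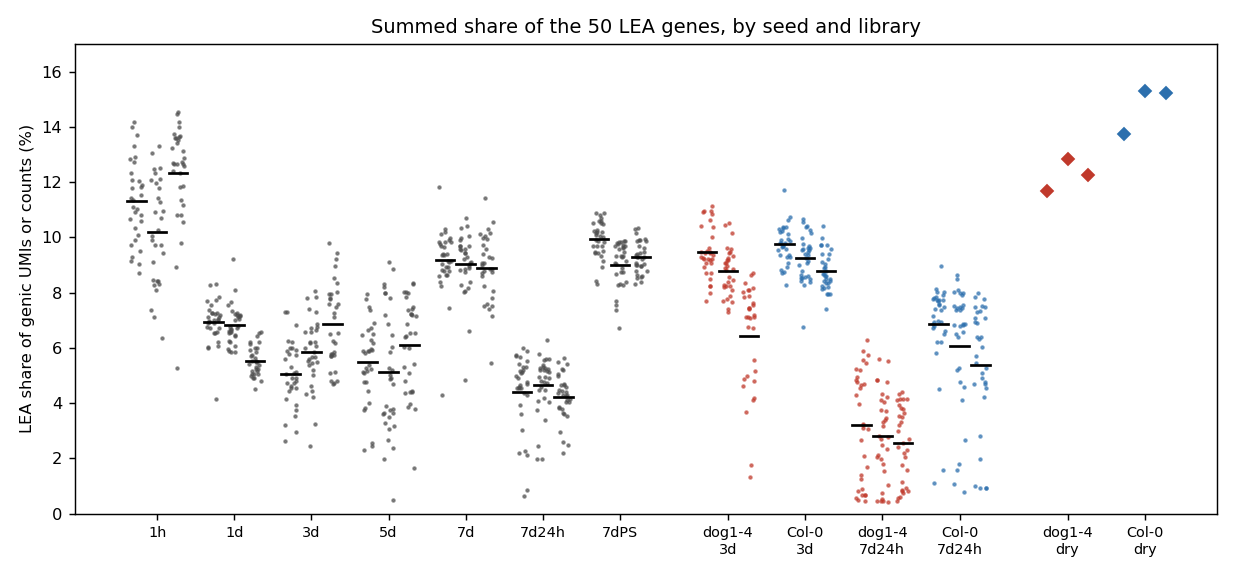
Share of genic UMIs (single seeds, dots) or counts (dry pools, diamonds) on the 50 LEA genes, in percent, by group and library; black bars are library means, red is dog1-4, blue is Col-0 and grey is the Col-0 time course. The share was highest in dry pools and at 1h and lowest in dog1-4 seeds at 7d24h, whose seeds ranged from 0.427% to 6.28%.

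The share was uneven among families. The 2 Em genes took 2.54% ± 0.37 (SD over 3 libraries) of genic UMIs at 1h, 1.68% ± 0.34 at 1d, 2.11% ± 0.13 at 3d, 2.12% ± 0.14 at 5d, 4.17% ± 0.19 at 7d and 1.23% ± 0.034 at 7d24h. The 10 dehydrins took 3.38% ± 0.38 at 1h, 1.39% ± 0.22 at 1d, 1.00% ± 0.20 at 3d, 0.781% ± 0.031 at 5d, 1.52% ± 0.087 at 7d and 0.778% ± 0.086 at 7d24h. The 17 LEA_4 genes took 2.42% at 1h and between 0.686% and 1.05% at each later time point. The dehydrins and LEA_4 genes thus kept less than they had at 1h at every later time point. The summed share of the Em genes, which is not scaled between libraries, was highest at 7d, where most of it was EM6. By scaled CPM, given below, EM6 at 7d overlapped 1h and EM1 was highest at 1d.

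Of the 50 members, 34 passed the filter on low values in the time course (averaging 1 UMI or more per seed, with a correlation of up to 0.3 with UMIs outside genic transcripts), and all 34 had an effect of time in an F-test over the 6 time points (edgeR's quasi-likelihood test, largest adjusted p = 3.1e-05), where 86.2% of 8074 genes had one. A gene was called when the adjusted p was under 0.05 and the log2 fold change beyond 1, with p-values from edgeR's quasi-likelihood test adjusted over all genes tested. The other 16 members were low: COR15A, COR15B, COR47, ERD10, ERD14, HIRD11, UNE15, LEA3, AT2G03740, AT2G03850, AT2G33690, AT3G53770, AT4G13230, AT4G38410, AT5G27980 and AT5G53260. Among them are the cold-regulated dehydrins COR47 and ERD10 and the chloroplast proteins COR15A and COR15B, and the highest library value of any of these 4 at the 6 time points was 38.5 CPM. LEA3, AT2G33690 and AT3G53770, which complete the LEA_3 and PvLEA18 families, reached at most 16.5 CPM at these time points.

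**Figure D2:**
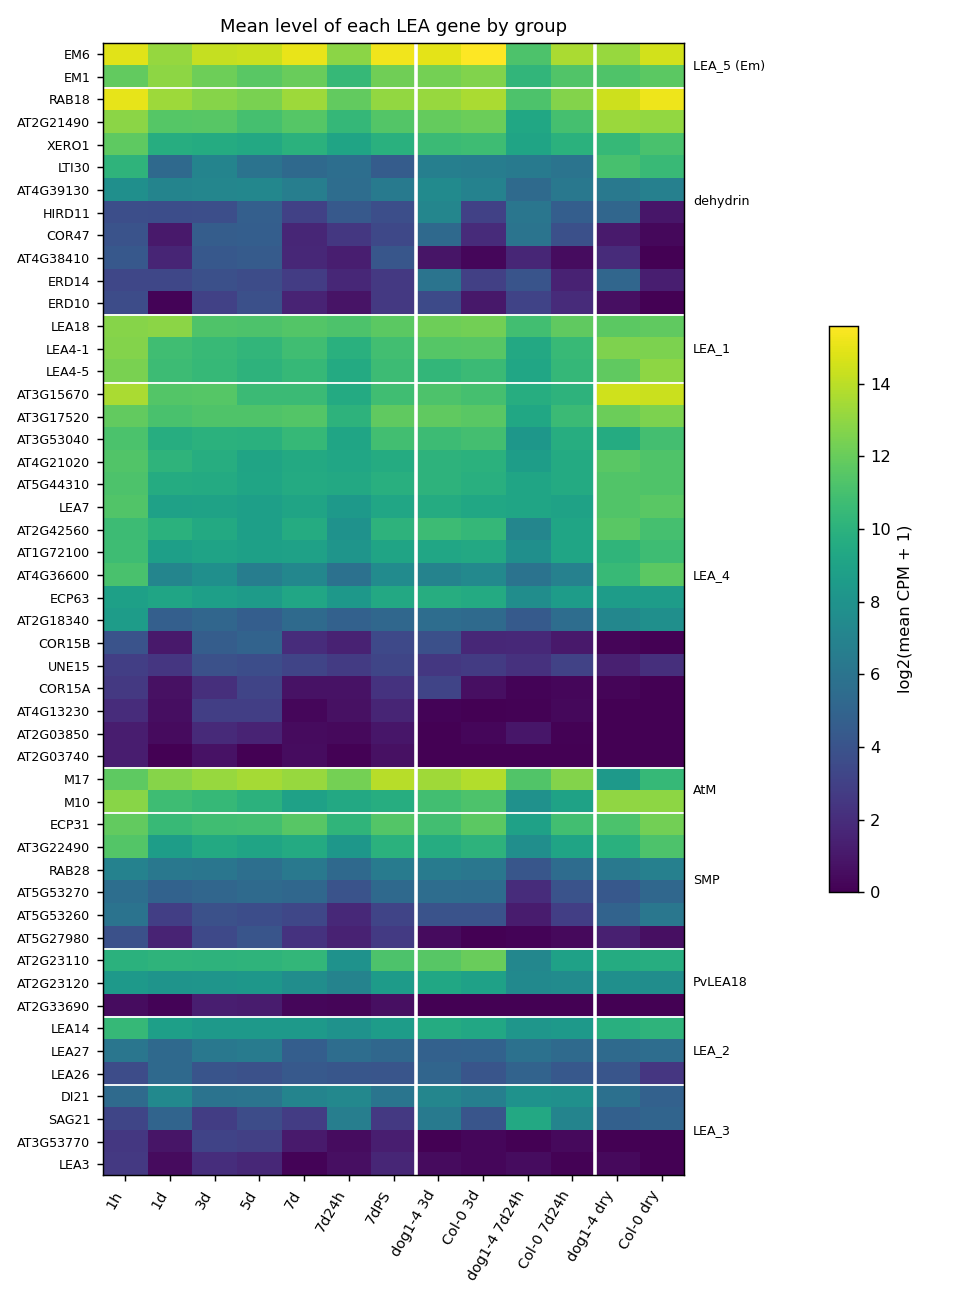
Mean level of each of the 50 LEA genes as log2(CPM + 1), rows ordered by family and level, columns by group; the time course, the genotype experiment and the dry pools (separated by white lines) were scaled separately. EM6, RAB18 and M17 had the highest mean levels over the time points, and the cold-regulated members at the foot of the dehydrin and LEA_4 blocks were near 0 in most groups.

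Between 1h and 1d, 19 of the 34 members tested fell. Time in water and temperature differed between 1h (22 °C) and the time points of induction (30 °C, in darkness). Effects of time in water, temperature and darkness cannot be told apart there. At 1d against 1h these 19 were lower and 5 members higher (13% and 13.8% of all genes tested), with a median log2 fold change of -1.35 for the members and -0.01 for all genes. By family, 8 of 11 LEA_4 genes, 4 of 5 dehydrins, 2 of 3 LEA_1 genes, 2 of 4 SMP genes and 1 gene each of the Em, AtM and LEA_2 families fell. The genes that rose were EM1, M17, LEA26, DI21 and SAG21. Of 12 storage and oil body genes, 3 rose and 5 fell in the same comparison. The endosperm list took 0.287% to 0.436% of genic UMIs at 1d, against 1.08% to 1.22% at 1h. Of its 3 genes 1 was called lower and none higher, with a median log2 fold change of -0.13. UMIs outside genic transcripts took 16.6% to 23.9% at 1d, against 41.4% to 63.4% at 1h. The part of the storage and oil body transcripts, of the endosperm list and of these UMIs in the fall was not tested. Of the 24 calls, 18 were kept under every alternative; AT2G21490, ECP31 and AT4G21020 were not called with library totals, with the filter of edgeR alone or with no filter, AT3G53040 and AT5G44310 not with either change of filter, and M17 not without 1h library 2 or 1d library 3.

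RAB18, an abscisic acid-responsive dehydrin and the highest member at 1h, had 32759.8, 28789 and 37824 CPM at 1h, 12181, 9919 and 8237 at 1d, 5969, 6501 and 8304 at 3d, 6254, 5096 and 5673 at 5d, 10490.4, 10358 and 9625 at 7d and 3825, 3781 and 3226 at 7d24h. All later libraries lay below those at 1h. At 1d against 1h RAB18 fell (log2 fold change of -1.71 ± 0.17, adjusted p = 3.95e-09), and at 7d24h against 7d it fell again (log2 fold change of -1.49 ± 0.17, adjusted p = 6.46e-08). Libraries count transcript ends, so that CPM values can be set beside each other for genes of different length.

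EM6, an Em protein of the dry embryo, was the most abundant member over the time points. It had 27581, 25989.9 and 36722 CPM at 1h, 9863, 9972 and 6818 at 1d, 18576, 21589 and 17728 at 3d, 21330.3, 18555 and 21988 at 5d, 33525, 35888 and 32974 at 7d and 6814, 7591 and 7977 at 7d24h. It was low at 1d, overlapped the 1h libraries at 7d and was low again in recovery. EM6 fell at 1d against 1h (log2 fold change of -1.76 ± 0.18, adjusted p = 5.81e-09) and at 7d24h against 7d (log2 fold change of -2.19 ± 0.18, adjusted p = 6.26e-10). It rose at 3d against 1d (log2 fold change of 1.12 ± 0.18, adjusted p = 1.28e-05), a call that was lost without 1d library 3, with the filter of edgeR alone and with no filter.

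EM1, the other Em gene, went the opposite way on the first day. It had 8750.0, 9086 and 6242 CPM at 1d, against 3417, 3079 and 4632 CPM at 1h, and all 1d libraries lay above all 1h libraries. EM1 rose (log2 fold change of 1.11 ± 0.17, adjusted p = 3.5e-06), while EM6 fell. From 3d on it had 4166, 5030.4 and 4448 CPM at 3d, 2938, 2752 and 3622 at 5d, 4339, 4292 and 4138 at 7d and 1235, 1476 and 1501 at 7d24h. Like EM6 it fell at 7d24h against 7d (log2 fold change of -1.60 ± 0.17, adjusted p = 2.23e-08).

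The 2 AtM genes, which lie side by side on chromosome 2, also parted. M17 had 3677, 2584 and 3678 CPM at 1h, 7328, 5820.1 and 7774 at 1d, 6843, 8867 and 12019 at 3d, 12038, 9341 and 12828 at 5d, 8012, 9676 and 10452 at 7d and 3887, 6761 and 4579 at 7d24h. M10 had 6654, 6867 and 8387 CPM at 1h, 1610.2, 1809.7 and 1709 at 1d, 1017, 1117 and 2087 at 3d, 971, 855 and 1216 at 5d, 481, 521 and 429.6 at 7d and 578, 757 and 713 at 7d24h. M17 rose at 1d against 1h (log2 fold change of 1.07 ± 0.21, adjusted p = 0.000146). At 7d against 1h M17 rose (log2 fold change of 1.5 ± 0.22, adjusted p = 2.01e-06) and M10 fell (log2 fold change of -3.94 ± 0.22, adjusted p = 1.8e-13). M10 was thus among the highest members at 1h and held a small part of that level at 7d.

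The largest falls on the first day were those of LTI30, AT4G36600 and AT2G18340. LTI30, a dehydrin known from cold and drought responses, had 24.5, 41.3 and 49.7 CPM at 1d, against 1017, 942 and 1369.5 CPM at 1h, and fell (log2 fold change of -4.85 ± 0.49, adjusted p = 6.16e-09). AT4G36600, a LEA_4 gene, had 139.9, 141 and 119.8 CPM at 1d, against 2181, 2108 and 2290.3 CPM at 1h (log2 fold change of -4.04 ± 0.28, adjusted p = 6.61e-12). AT2G18340, also of LEA_4, had 24.2, 27.1 and 26.2 CPM at 1d, against 363, 348 and 487 CPM at 1h (log2 fold change of -3.95 ± 0.17, adjusted p = 1.54e-15). None of these 3 came back to the 1h level in any library of a later time point.

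LTI30 at 3d rests on library 3. It had 34.6, 56.0 and 301 CPM at 3d, against 24.5, 41.3 and 49.7 CPM at 1d, and was called higher (log2 fold change of 1.90 ± 0.48, adjusted p = 0.0024), but without 3d library 3 the log2 fold change was 0.25 (adjusted p = 0.706, edgeR's quasi-likelihood test). In that library the seeds of columns 21 to 32, most of them high in the endosperm gene AT2G27380, had 639 CPM of LTI30, 851 CPM of AT4G36600 and 8650 CPM of AT3G15670. The other 20 seeds had 76.1, 98.5 and 1931 CPM. The part of the endosperm transcripts in these values was not tested.

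Abundant LEA_4 genes shared the early fall. AT3G15670, the highest of them at 1h, had 11959.7, 11474 and 14135 CPM at 1h, 2844, 3008 and 2406 at 1d, 1638, 2111 and 4669.6 at 3d, 1636, 1279 and 1908 at 5d, 1512, 1557 and 1601 at 7d and 837, 797 and 627 at 7d24h. At 7d against 1h it fell (log2 fold change of -3.01 ± 0.25, adjusted p = 2.71e-10). AT3G17520 changed less on the first day, with 2028, 2501 and 2075 CPM at 1d, against 3745, 3533 and 3729 CPM at 1h (log2 fold change of -0.74 ± 0.16, adjusted p = 0.000365, short of the fold limit). AT3G53040 fell to 959, 875 and 666 CPM at 1d, against 2495, 2230.2 and 2347 CPM at 1h, and AT4G21020 to 1182, 1173 and 1041 CPM, against 2617, 2339 and 3035 CPM. Both were called, with log2 fold changes of -1.5 and -1.23.

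The other abundant dehydrins AT2G21490 and XERO1 followed RAB18. AT2G21490 had 3339, 3003 and 2297 CPM at 1d, against 6789.5, 6752 and 8799 CPM at 1h (log2 fold change of -1.37 ± 0.16, adjusted p = 7.32e-08). XERO1 had 946, 881 and 717 CPM at 1d, against 3170.1, 2848 and 4006 CPM at 1h (log2 fold change of -1.98 ± 0.16, adjusted p = 1.12e-10). In the SMP family ECP31, named for a carrot protein of embryogenic cells, and its neighbour AT3G22490 both fell. ECP31 had 1323, 1675 and 1405 CPM at 1d, against 3739, 3153 and 4108 CPM at 1h (log2 fold change of -1.32 ± 0.14, adjusted p = 1.29e-08), and AT3G22490 had 413, 464 and 342 CPM, against 2504, 2462 and 3114 CPM (log2 fold change of -2.73 ± 0.15, adjusted p = 6.96e-14). The low SMP genes RAB28 and AT5G53270 had log2 fold changes of -0.71 and -0.76 and were not called.

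**Figure D3:**
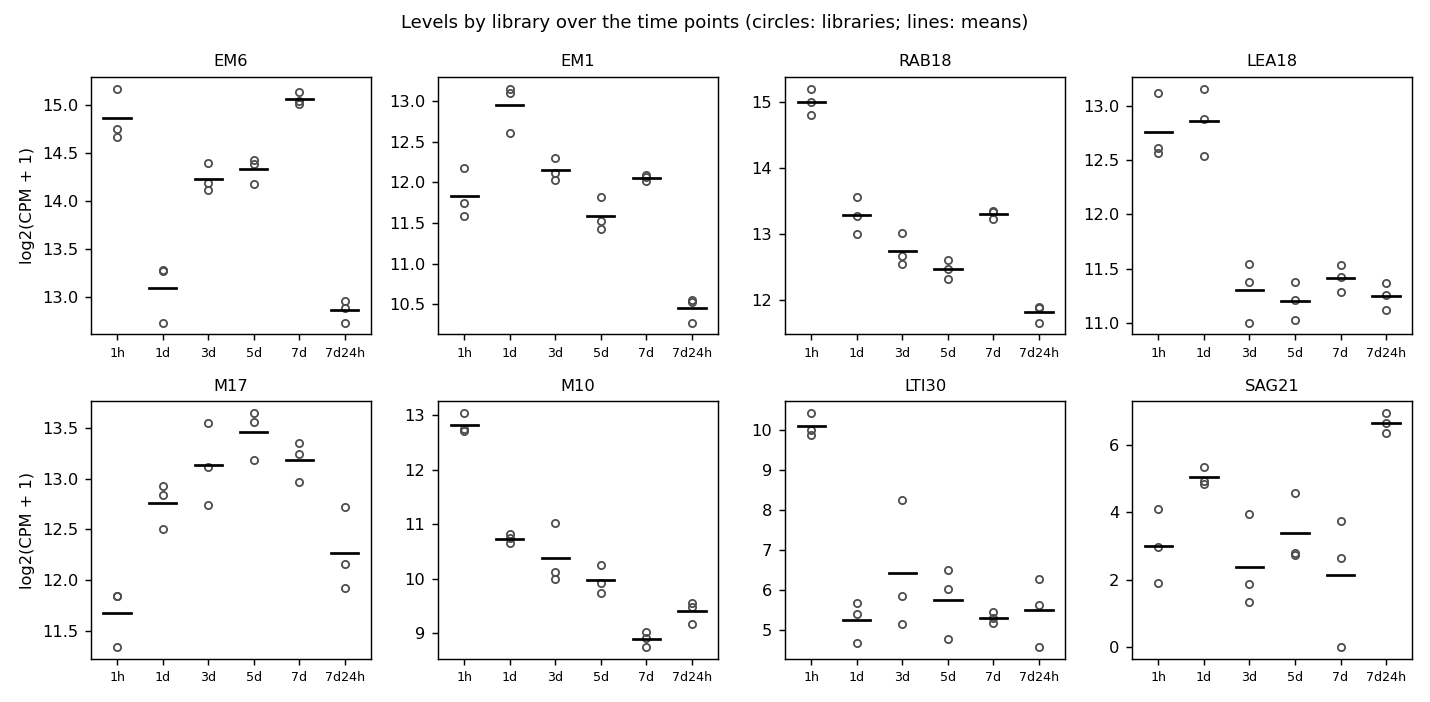
Levels of 8 LEA genes as log2(CPM + 1) in each library (circles) over the 6 time points, with the mean of the 3 libraries (lines); each panel has its own axis. RAB18, M10 and LTI30 were highest at 1h, EM1 at 1d and SAG21 at 7d24h, and the LTI30 value at 3d was raised in 1 library.

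LEA_1 genes fell at different times. LEA4-1 and LEA4-5 were lower at 1d than at 1h, with 2177, 1842 and 1286 CPM of LEA4-1 at 1d, against 6105, 5728 and 8094 CPM at 1h, and 1659, 1905 and 1369 CPM of LEA4-5 at 1d, against 5285, 5032 and 6299 CPM at 1h. Their log2 fold changes were -1.91 ± 0.18 and -1.75 ± 0.19 (SE). LEA18 had 9117, 7537 and 5926 CPM at 1d, against 6236, 6041 and 8887 CPM at 1h, and these groups overlapped. Its fall came later: it had 2053, 2657 and 2986 CPM at 3d, below all 1d libraries (log2 fold change of -1.55 ± 0.18, adjusted p = 1.33e-07).

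Both LEA_3 genes tested rose on the first day. DI21, named for its induction by drought, had 46.6, 26.5 and 48.5 CPM at 1h, 196, 147 and 155 at 1d, 61.7, 37.3 and 84.8 at 3d, 60.1, 62.1 and 65.5 at 5d, 170.1, 97.4 and 129 at 7d and 156, 161 and 153 at 7d24h. It rose at 1d against 1h (log2 fold change of 2.05 ± 0.23, adjusted p = 4.69e-08), fell at 3d against 1d (log2 fold change of -1.37 ± 0.21, adjusted p = 9.66e-06) and rose at 7d against 5d (log2 fold change of 1.09 ± 0.22, adjusted p = 0.000335). The last call was lost without 7d library 1. SAG21, a mitochondrial LEA_3 protein induced by oxidative stress and in senescence, had 6.85, 16.1 and 2.77 CPM at 1h, 39.5, 27.5 and 29.4 at 1d, 1.5, 2.67 and 14.3 at 3d, 5.67, 22.8 and 5.95 at 5d and 12.4, 0 and 5.18 at 7d, where it was at 0 in 1 library. It rose at 1d against 1h (log2 fold change of 1.83 ± 0.54, adjusted p = 0.00593) and fell at 3d against 1d (log2 fold change of -1.97 ± 0.51, adjusted p = 0.00308). The LEA_2 gene LEA26 moved alike, with 45.0, 36.2 and 36.0 CPM at 1d, against 6.85, 17.3 and 9.69 CPM at 1h (log2 fold change of 1.75 ± 0.31, adjusted p = 4.04e-05), and fell at 3d against 1d (log2 fold change of -1.32 ± 0.28, adjusted p = 0.000444). Its family members LEA14 and LEA27 had log2 fold changes of -1.69 (called lower) and -0.88 (not called) at 1d against 1h.

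Between 1d and 7d few members passed both the test and the fold limit. At 3d against 1d, 2 members (EM6 and LTI30) were higher and 4 (LEA18, LEA26, DI21 and SAG21) lower, where 9.17% and 7.48% of all genes were. An adjusted p under 0.05 without regard to fold was reached by 14 members at 3d against 1d and by 18 at 7d against 5d. This was not counted over all genes, so that these numbers do not set the members apart from other genes. At 3d against 1d members had a median log2 fold change of 0.00 and all genes 0.03. At 5d against 3d no member was called, with 0.136% of all genes called (0.0495% higher and 0.0867% lower). An unadjusted p under 0.05 in edgeR's quasi-likelihood test was found for 11 members and not counted over all genes, and DESeq2 called 1 member. At 7d against 5d, 1 member (DI21) was higher and 2 (M10 and LEA27) lower, where 1.66% and 9.3% of all genes were.

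LEA27 had 17.7, 27.1 and 28.7 CPM at 7d, against 94.1, 109 and 60.4 CPM at 5d, and fell (log2 fold change of -1.80 ± 0.24, adjusted p = 3.87e-06). M10 fell (log2 fold change of -1.09 ± 0.20, adjusted p = 0.000143). The M10 call was lost with library totals, with either change of filter and without 5d library 3, and the LEA27 call with either change of filter. Of the 31 members not called at 7d against 5d, 24 had positive and 7 negative log2 fold changes, and the median over members was 0.35 and over all genes 0.06. EM6 stayed short of the fold limit, with 0.73 ± 0.17 (adjusted p = 0.00198), and RAB18 and ECP31 had 0.84 and 0.70.

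The comparisons of 3d with 1d and of 7d with 5d changed with the filter. The filter of edgeR alone keeps low genes as well as those that follow the UMIs outside genic transcripts, 20216 in all. With it 21 members were called at 3d against 1d (8 higher and 13 lower) and 27 at 7d against 5d (22 higher and 5 lower). The share of all genes called was not set beside these counts, so that they do not set the members apart from other genes. The members' medians were -0.68 and 0.95, and those of all genes -0.06 and -0.03. Dropping the limit on the correlation alone (8763 genes) gave 6 and 3 called members, with members' medians of -0.08 and 0.37. The share of UMIs outside genic transcripts had library medians of 16.6% to 23.9% at 1d, 62.5% to 73.0% at 3d, 64.4% to 75.5% at 5d and 26.2% to 31.2% at 7d. Its part in these comparisons was not tested.

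Over the whole induction, at 7d against 1h, 20 of 34 members were lower and 2 (DI21 and M17) higher, where 14.2% and 13.5% of all genes were. The median was -1.37 for members and 0.01 for all genes. All 5 dehydrins and all 3 LEA_1 genes tested were lower, as were 8 of 11 LEA_4 genes. The calls of the dehydrins AT2G21490 and AT4G39130, of LEA18 and of AT2G42560 were lost with library totals and with either change of filter, and that of LEA27 with the filter of edgeR alone. The endosperm list took 0.0417% to 0.0643% at 7d, against 1.08% to 1.22% at 1h. Of its 3 genes 1 was called lower and none higher, and their median log2 fold change was 0.56. UMIs outside genic transcripts took 26.2% to 31.2% at 7d, against 41.4% to 63.4% at 1h. The part of the endosperm list and of these UMIs in the fall was not tested. Neither Em gene was called: EM6 had a log2 fold change of 0.18 ± 0.17 and EM1 of 0.20 ± 0.17 (SE).

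In recovery 14 of 34 members fell. At 7d24h against 7d, these 14 were lower and 1 (SAG21) higher, where 8.21% and 9.91% of all genes were, with a median of -0.88 for members and -0.02 for all genes. Both Em genes, 5 of 11 LEA_4 genes, 3 of 4 SMP genes, 3 of 5 dehydrins and 1 of 2 PvLEA18 genes fell, and no AtM, LEA_1 or LEA_2 gene was called. With library totals as the only scaling, under which the median of all genes moved to 0.35, 7 were lower and 2 higher. The share of all genes called under this scaling was not set beside these counts. Single libraries decided the calls of AT2G21490 and AT3G15670 (lost without 7d24h library 3) and of AT5G53270 (lost without 7d library 2). Storage and oil body genes fell too, 10 of 12.

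AT2G23110, a PvLEA18 gene, fell most, with 302, 281 and 166 CPM at 7d24h, against 1386, 1265 and 1167 CPM at 7d (log2 fold change of -2.35 ± 0.21, adjusted p = 2.37e-09). Its neighbour AT2G23120 had 112, 132 and 123 CPM at 7d24h, against 141, 189 and 263 CPM at 7d, and was not called (log2 fold change of -0.71 ± 0.19, adjusted p = 0.00287). AT2G42560, of LEA_4, had 276, 273 and 196 CPM at 7d24h, against 768, 777 and 812 CPM at 7d (log2 fold change of -1.66 ± 0.19, adjusted p = 7.87e-08). SAG21 had 98.8, 79.9 and 122 CPM at 7d24h, against 12.4, 0 and 5.18 CPM at 7d. All 7d24h libraries lay above all libraries of the other time points, and SAG21 rose (log2 fold change of 3.96 ± 0.41, adjusted p = 1.87e-08).

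Between the pool-split control and 7d, where seeds of the same age were compared, 1 member was called, where 1.77% of all genes were (1.37% higher and 0.396% lower): DI21 was lower, with 68.2, 61.2 and 65.5 CPM in 7dPS, against 170.1, 97.4 and 129 CPM at 7d (log2 fold change of -1.04 ± 0.20, adjusted p = 0.00194). The call was lost without 7d library 1 or 7dPS library 2. UMIs outside genic transcripts had library medians of 51.4% to 57.3% in 7dPS, against 26.2% to 31.2% at 7d, and their part in this call was not tested.

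Single seeds of the same time point differed in their LEA transcripts. At 7d24h the summed LEA share of single seeds ran from 0.634% to 6.29%, with a coefficient of variation of 25.4% over 95 seeds, and at 5d from 0.488% to 9.13% (33.1%, 96 seeds). At 7d it ran from 4.30% to 11.8% (a coefficient of variation of 13%, 93 seeds), and in 7dPS, the control of that time point made from aliquots of mixed extracts, from 6.71% to 10.9% (8.35%). The 7d and 7dPS groups also differed in their share of UMIs outside genic transcripts, given above. Within 1h, 3d, 5d and 7dPS libraries the LEA share was lower in seeds or aliquots with a larger share of UMIs outside genic transcripts. Spearman coefficients were -0.85 to -0.53 at 1h, -0.94 to -0.57 at 3d, -0.94 to -0.93 at 5d and -0.97 to -0.88 in 7dPS. At 1d they were -0.45 to -0.14 and at 7d -0.49 to -0.19. At 7d24h these were -0.06 to 0.09. The coefficients are over the 30 to 32 seeds of a library, which share a library preparation, and are a description.

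The spread of each member among seeds was measured as the variance of sctransform residuals, with library and UMIs outside genic transcripts as covariates, beside the limit of 4. No member passed this limit at 1h, at 5d or in 7dPS, where 44 of 4256, 54 of 6392 and 26 of 7739 genes did. Of all genes 0.336% passed it in 7dPS and 0.27% at 7d, so that passing it at 7d does not set seeds apart from mixed extracts. M17 (7.31) and M10 (4.44) passed it at 1d, DI21 (4.04) at 7d and SAG21 (9.43) at 7d24h, where 72 of 9306, 22 of 8155 and 106 of 11751 genes did. At 3d AT4G36600 (8.85), LTI30 (7.77) and AT3G15670 (6.49) passed it, with 67 of 6074 genes, and no member did without library 3, whose columns 21 to 32 are described above.

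SAG21 at 7d24h had between 0 and 131 UMIs per seed, with library medians of 7, 6 and 10. DI21 at 7d had up to 147 UMIs in a seed, while the median over all 93 seeds was 5. Seeds with much SAG21 had little RAB18 at 7d24h, with Spearman coefficients of -0.78 to -0.68 within the 3 libraries, and EM6 and ECP31 went together, with 0.67 to 0.89. For pairs of members with at least 5 UMIs per seed the median coefficient was 0.26 at 7d24h over 435 pairs, 0.06 at 7d and 0.03 in 7dPS, and for pairs of all genes 0.01 at 7d24h. These medians are over the residuals of all seeds of a group and not within libraries.

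**Figure D4:**
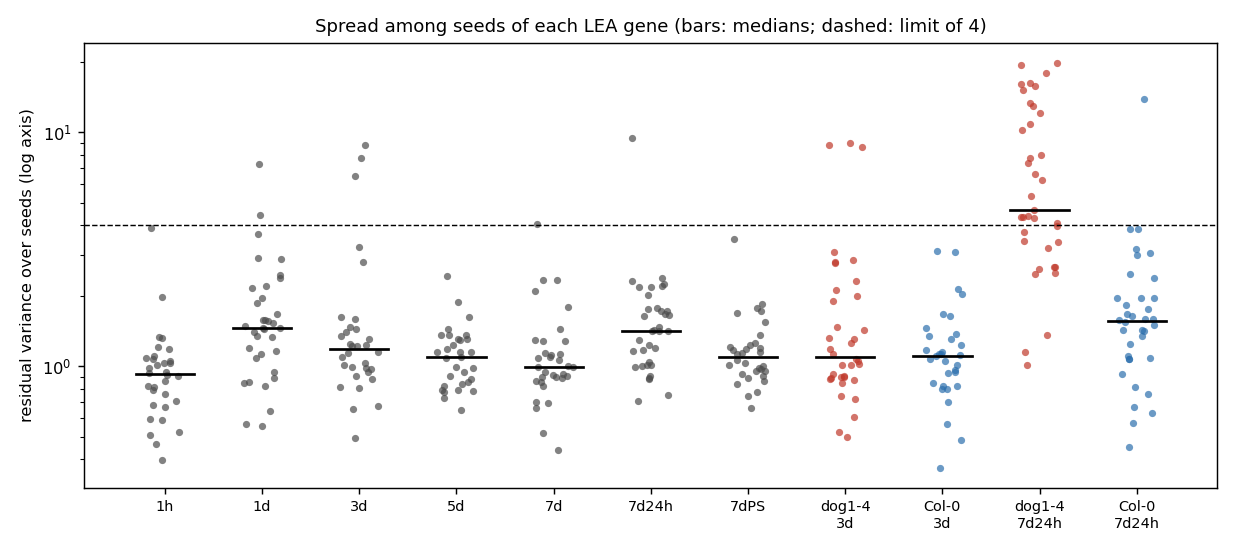
Variance of the residuals over seeds for each LEA gene with at least 1 UMI per seed, on a log axis, by group (points), with the median over members (bars) and the limit of 4 (dashed); grey is the Col-0 time course, red dog1-4 and blue Col-0. In dog1-4 seeds at 7d24h 24 of 37 members lay over the limit, against 1 of 36 in Col-0 seeds at 7d24h; of all genes 5.57% in dog1-4 and 3.99% in Col-0 did.

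The genotype experiment set dog1-4 seeds beside Col-0 seeds. The summed LEA share was 9.47%, 8.78% and 6.42% in dog1-4 libraries at 3d, against 9.75%, 9.26% and 8.78% in Col-0 libraries at 3d, and these overlapped. At 7d24h it was 3.22%, 2.81% and 2.55% in dog1-4 libraries, against 6.87%, 6.09% and 5.37% in Col-0 libraries, with no overlap. The Em genes had 0.550% ± 0.11 in dog1-4 and 1.92% ± 0.27 in Col-0 at 7d24h, and the LEA_3 genes 0.106% in dog1-4 and 0.040% in Col-0 (SD over 3 libraries for the Em genes). Storage and oil body transcripts took 1.82% to 2.13% in dog1-4 and 4.71% to 5.99% in Col-0 libraries at 7d24h, and endosperm transcripts 0.0686% to 0.0869% in dog1-4 and 0.0264% to 0.0429% in Col-0, and their part in the LEA difference was not tested.

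At 3d 1 of 37 members tested was called between dog1-4 and Col-0, where 1.01% of all genes were (0.681% higher and 0.327% lower), with medians of 0.13 for members and 0.00 for all genes. This was ERD14, an acidic dehydrin induced early by dehydration, with 16.8, 31.3 and 142 CPM in dog1-4 at 3d, against 4.31, 5.01 and 11.2 CPM in Col-0 at 3d. It was higher in dog1-4 (log2 fold change of 3.27 ± 0.70, adjusted p = 0.0369). When the 8 seeds of columns 9 to 16 were left out of dog1-4 library 3, a choice made after seeing the data, the log2 fold change was 2.03 (adjusted p = 0.00592, edgeR's quasi-likelihood test), which kept the call; it was lost when only the groups compared were fitted or when any Col-0 3d library was left out.

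In these 8 seeds some members stood above all other seeds of the group, while the summed LEA share was lower. It was 4.26%, against 7.14% in the other 24 seeds of that library. LEA14, LEA4-1 and LEA7 had 454, 1292 and 345 CPM in the 8 seeds, against 777, 2260 and 742 CPM in the other 24. Among the higher members COR47 had 15 to 52 UMIs per seed in the 8 seeds and at most 3 in the other seeds of the group. ERD10 had 7 to 16 UMIs in the 8 seeds (at most 2 in the others), HIRD11 91 to 175 (at most 5), ERD14 32 to 63 (at most 18) and SAG21 33 to 112 (at most 14). COR15B and COR15A were also above all other seeds. ERD14 was called lower at 7d24h against 3d in dog1-4 (log2 fold change of -2.08 ± 0.57, adjusted p = 0.00708), and without these seeds the log2 fold change was -0.87 and not called. At the level of libraries HIRD11, a histidine-rich dehydrin, had 9.48, 19.4 and 396 CPM in dog1-4 at 3d, against 4.31, 8.90 and 8.26 CPM in Col-0 at 3d, and was not called (log2 fold change of 4.33 ± 1.16, adjusted p = 0.081). Without these seeds its log2 fold change was 1.17 (adjusted p = 0.203).

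After 24 h of recovery the genotypes parted. At 7d24h 18 of 37 members were lower in dog1-4 than in Col-0 and 1 (ERD14) higher, where 5.86% and 4.17% of all genes were, and the median was -1.0 for members and 0.03 for all genes. All 4 SMP genes tested, both Em genes, both AtM genes, 2 of 3 LEA_1 genes, 5 of 11 LEA_4 genes, 2 of 8 dehydrins and 1 of 2 PvLEA18 genes were lower. No LEA_2 or LEA_3 gene was called. Of 12 storage and oil body genes 9 were lower and none higher, and of 7 seed maturation regulators tested 3 were lower.

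EM6 had 3191, 2364 and 1803 CPM in dog1-4 at 7d24h, against 15889, 12261 and 10069 CPM in Col-0 at 7d24h. All dog1-4 libraries lay below all Col-0 libraries, and EM6 was lower (log2 fold change of -2.38 ± 0.36, adjusted p = 0.00107). AT5G53270, a low SMP gene, differed as much, with 4.28, 2.60 and 1.77 CPM in dog1-4, against 20.6, 13.2 and 10.2 CPM in Col-0 (log2 fold change of -2.41 ± 0.36, adjusted p = 0.00105). AT2G42560 had 213, 142 and 66.9 CPM in dog1-4, against 730.1, 558 and 435 CPM in Col-0 (log2 fold change of -2.04 ± 0.39, adjusted p = 0.00333). The groups of these genes did not overlap.

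ECP31 had 586, 493 and 374 CPM in dog1-4 at 7d24h, against 2357, 1671 and 1588 CPM in Col-0 at 7d24h (log2 fold change of -1.95 ± 0.24, adjusted p = 0.000522). RAB18 had 2565, 2664 and 2114 CPM in dog1-4, against 8449, 5927 and 5249 CPM in Col-0 (log2 fold change of -1.42 ± 0.29, adjusted p = 0.00483). M17 had 2689, 2693 and 2574 CPM in dog1-4, against 7822, 7097 and 4982 CPM in Col-0 (log2 fold change of -1.32 ± 0.24, adjusted p = 0.00277). Again no dog1-4 library reached the lowest Col-0 library. AT2G21490 was lower (log2 fold change of -1.73 ± 0.25, adjusted p = 0.000958), and the remaining lower members lay between -1.69 and -1.05 on the log2 scale. The calls of LEA4-1, LEA4-5, M10 and EM1 were lost without Col-0 7d24h library 1.

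Members that were not lower in dog1-4 at 7d24h were found in several families. LEA7 had 561, 619 and 546 CPM in dog1-4, against 542, 504 and 484 CPM in Col-0 (log2 fold change of 0.17 ± 0.14, adjusted p = 0.345), and DI21 226, 246 and 265 CPM in dog1-4, against 229.8, 235 and 225 CPM in Col-0 (log2 fold change of 0.10 ± 0.11, adjusted p = 0.508). ERD14, low in both genotypes, had 14.1, 16.3 and 16.3 CPM in dog1-4, against 2.19, 1.64 and 1.78 CPM in Col-0, and was higher (log2 fold change of 3.05 ± 0.78, adjusted p = 0.0128). SAG21 had 682, 721 and 651 CPM in dog1-4, against 51.3, 137 and 196 CPM in Col-0. Its groups did not overlap, but the difference did not pass the test (log2 fold change of 2.42 ± 0.92, adjusted p = 0.0602). A fit of these groups alone called it higher in dog1-4 (2.39, adjusted p = 0.000673).

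**Figure D5:**
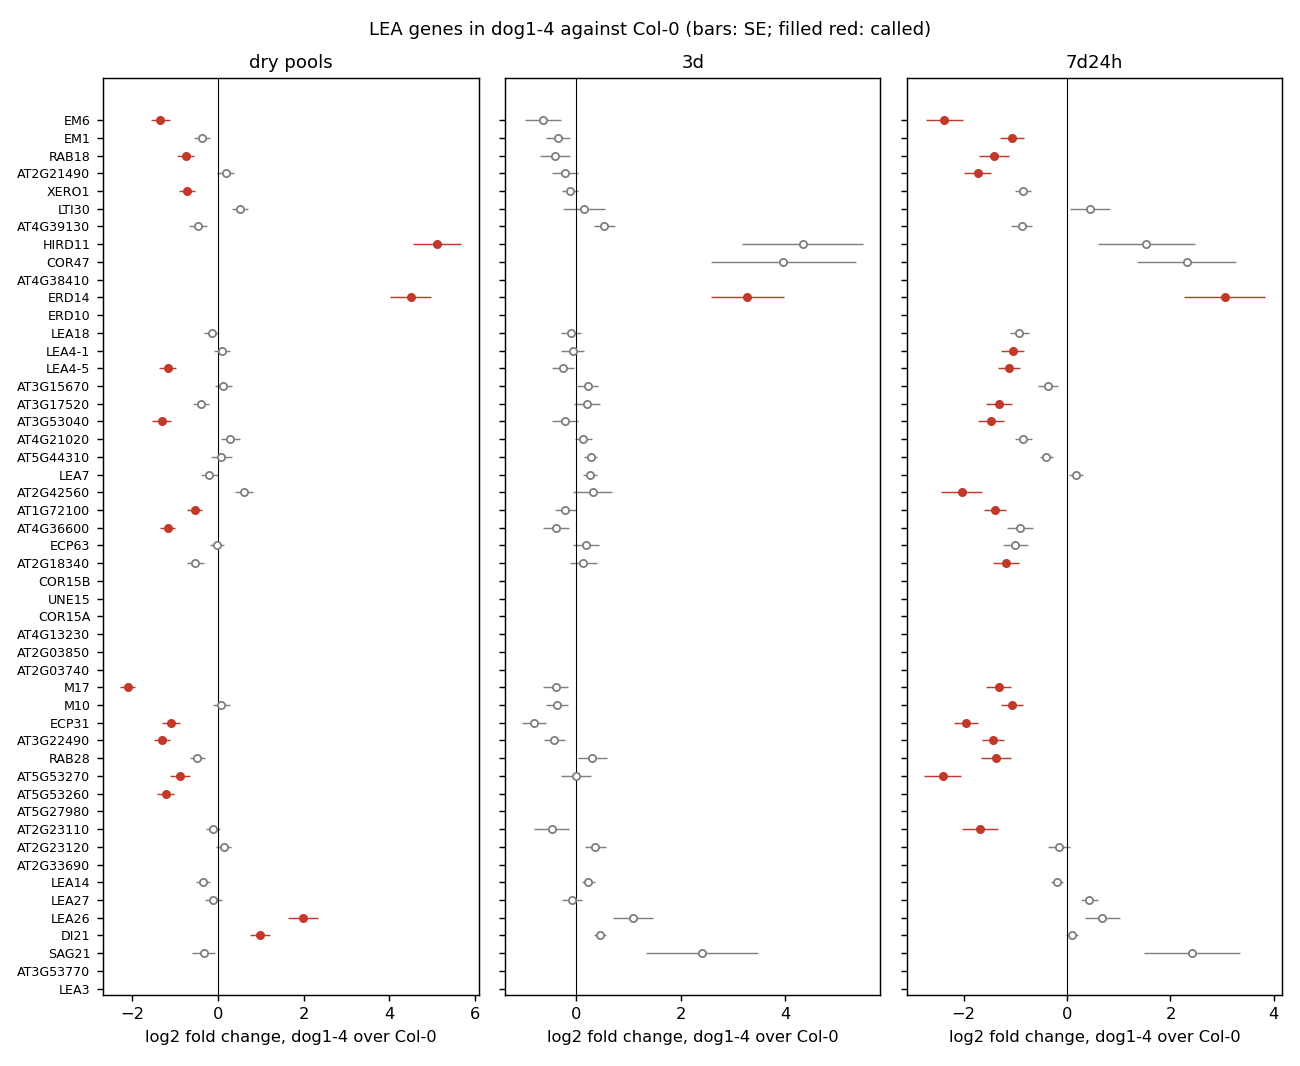
Log2 fold change of each tested LEA gene in dog1-4 over Col-0 in dry pools, at 3d and at 7d24h, with its SE (bars); filled red points passed the call rule of that comparison (adjusted p under 0.05 in dry pools, with a log2 fold change beyond 1 in addition at 3d and 7d24h), and rows with no point were not tested. At 7d24h 18 members lay to the left as called and ERD14 to the right, while at 3d ERD14 was the only call.

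In both genotypes the LEA share was lower at 7d24h than at 3d in every library. In Col-0, at 7d24h against 3d, 11 of 37 members were lower and 2 (SAG21 and DI21) higher, where 8.39% and 13.4% of all genes were (medians of -0.82 for members and 0.02 for all genes). In dog1-4 28 members were lower and 2 (SAG21 and LEA27) higher, where 16% and 17.6% of all genes were (medians of -1.90 and 0.01). With library totals as the only scaling, under which the median of all genes was 0.64 in Col-0 and 0.50 in dog1-4, 4 were lower and 3 higher in Col-0 and 19 lower and 3 higher in dog1-4. The share of all genes called with library totals was not set beside these counts.

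EM6 had 3191, 2364 and 1803 CPM at 7d24h, against 45164, 31679 and 18397 CPM at 3d, in dog1-4 (log2 fold change of -3.69 ± 0.38, adjusted p = 8.99e-06), and 15889, 12261 and 10069 CPM at 7d24h, against 55757, 49545 and 42676 CPM at 3d, in Col-0 (log2 fold change of -1.95 ± 0.35, adjusted p = 0.000908). AT2G23110 had the lowest log2 fold change in both genotypes. In dog1-4 it had 198, 144 and 106 CPM at 7d24h, against 4384, 2888 and 1808 CPM at 3d (log2 fold change of -4.35 ± 0.38, adjusted p = 4.18e-06), and in Col-0 618, 468 and 349 CPM at 7d24h, against 5107, 4267 and 3199 CPM at 3d (log2 fold change of -3.13 ± 0.36, adjusted p = 6.27e-05). AT5G53270 in dog1-4 had 4.28, 2.60 and 1.77 CPM at 7d24h, against 59.8, 41.3 and 35.9 CPM at 3d (log2 fold change of -4.04 ± 0.35, adjusted p = 4.01e-06), and M10 in Col-0 had 544, 540.5 and 415 CPM at 7d24h, against 2605, 2452 and 2317 CPM at 3d (log2 fold change of -2.30 ± 0.23, adjusted p = 2.75e-05). Among the genes that rose, DI21 in Col-0 had 229.8, 235 and 225 CPM at 7d24h, against 108, 101 and 107 CPM at 3d (log2 fold change of 1.12 ± 0.11, adjusted p = 2.98e-05). SAG21 rose in dog1-4 (log2 fold change of 2.99 ± 0.96, adjusted p = 0.0162) and in Col-0 (log2 fold change of 2.97 ± 1.07, adjusted p = 0.0357), and the Col-0 call was lost without any of 5 single libraries. Without the 8 seeds of dog1-4 3d library 3 the dog1-4 change came to 4.89 on the log2 scale (adjusted p = 8.68e-06), and fitting these groups alone gave 3.02, which was not called (adjusted p = 0.0647). LEA27 in dog1-4 had 52.0, 59.8 and 54.2 CPM at 7d24h, against 28.4, 23.8 and 29.9 CPM at 3d (log2 fold change of 1.01 ± 0.18, adjusted p = 0.000479), just past the fold limit. This call was lost in 6 of 14 alternatives, among them DESeq2, the 8 seeds left out (0.89, adjusted p = 0.000847) and dog1-4 library 2 of either time point left out.

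The test of the difference between these changes, the interaction of genotype and time point, called 8 members lower and none higher, where 3.28% and 0.799% of all genes were (4.07% in all), with medians of -0.98 for members and -0.03 for all genes. AT5G53270 (log2 fold change of -2.39 ± 0.46, adjusted p = 0.0154) and AT2G42560 (log2 fold change of -2.36 ± 0.54, adjusted p = 0.0281) differed most. Without the 8 seeds of dog1-4 library 3 at 3d, 16 members were called, without that whole library 21, and without dog1-4 7d24h library 3 none. Leaving out 1 of 8 further libraries gave 1 to 3, so that the number rests on single libraries. EM6, the most abundant member, had an interaction of -1.74 ± 0.49 (adjusted p = 0.0548) and was not called.

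In single dog1-4 seeds at 7d24h the LEA share ran from 0.427% to 6.28%, with quartiles of 1.22%, 3.03% and 4.14% and a coefficient of variation of 58.2%, against 0.771% to 8.95% and 35.1% in Col-0 seeds (96 seeds each). EM6 had between 5 and 1563 UMIs per dog1-4 seed (median 224), against 32 to 3482 in Col-0 seeds (median 1438). ECP31 had between 0 and 227 UMIs (median 58.5) and was at 0 in 6 dog1-4 seeds, against 5 to 476 (median 210.0) in Col-0 seeds. Some dog1-4 seeds thus held hardly any transcripts of these genes, and others lay within the range of Col-0 seeds.

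Of 37 members, 24 had a residual variance over 4 in dog1-4 seeds at 7d24h, with a median of 4.66, against 1 of 36 in Col-0 seeds at 7d24h, with a median of 1.57. Of all genes 690 of 12383 (5.57%) were over the limit in dog1-4 and 458 of 11480 (3.99%) in Col-0, and the medians were 1.05 in dog1-4 and 1.07 in Col-0. The highest in dog1-4 were ECP31 (19.8), EM1 (19.5), EM6 (17.9), SAG21 (16.3), COR47 (16.1), M10 (15.8) and RAB18 (15.1), and in Col-0 it was SAG21 (13.8). At 3d HIRD11 (9.0), SAG21 (8.84) and ERD14 (8.61) passed the limit in dog1-4, with 2.16% of all genes. No member did without library 3 (0.466% of all genes), and none did in Col-0 (0.389%). Thinned to 5000 UMIs per seed, 1 of 24 members stayed over the limit in dog1-4 at 7d24h, with a median of 1.87, against none of 25 in Col-0, with a median of 1.18.

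Members went up and down together from seed to seed. The median Spearman coefficient of member pairs was 0.69 over 496 pairs in dog1-4 seeds at 7d24h and 0.41 over 465 pairs in Col-0 seeds, and 0.02 and 0.01 for pairs of all genes. SAG21 ran against RAB18 and EM6: within the dog1-4 libraries its coefficient with RAB18 was -0.94 to -0.80 and with EM6 -0.88 to -0.80, while EM6 and ECP31 had 0.95 to 0.96. In Col-0 libraries SAG21 and RAB18 had -0.84 to -0.43. Within dog1-4 libraries at 7d24h the LEA share followed the share of storage and oil body transcripts (0.75 to 0.88) and ran against that of endosperm transcripts (-0.79 to -0.72). With the share of UMIs outside genic transcripts it had 0.16 to 0.63 in dog1-4 and 0.23 to 0.30 in Col-0 libraries at 7d24h. The medians of pairs are over the residuals of all 96 seeds of a group. The other coefficients are over the 32 seeds of 1 library, and all are given as a description.

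In dry pools the LEA genes took 11.7%, 12.9% and 12.3% of counts in dog1-4, against 13.8%, 15.3% and 15.2% in Col-0, with no overlap. Dehydrins took 3.72% in dog1-4 and 4.66% in Col-0, LEA_4 genes 4.49% in dog1-4 and 4.2% in Col-0, and Em genes 1.23% in dog1-4 and 2.5% in Col-0. At an adjusted p under 0.05 with no limit on the fold, 12 of 37 members were lower in dog1-4 and 4 higher, where 5.17% and 4.78% of all genes were (9.95% in all), and medians were -0.33 for members and 0.01 for all genes. Of these 16 members, 11 had a log2 fold change beyond 1. Of 12 storage and oil body genes, 5 were higher and 1 lower.

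M17 had 373, 265 and 351 CPM in dog1-4 pools, against 1579, 1335 and 1327 CPM in Col-0 pools (log2 fold change of -2.10 ± 0.18, adjusted p = 4.66e-08). EM6 had 6964, 9430.4 and 11166 CPM in dog1-4, against 24715, 25872 and 19339.8 CPM in Col-0 (log2 fold change of -1.34 ± 0.21, adjusted p = 0.000139), and AT3G53040 803, 947 and 559 CPM in dog1-4, against 1339, 2039 and 2373 CPM in Col-0 (log2 fold change of -1.32 ± 0.21, adjusted p = 0.000175). None of these groups overlapped. The SMP genes were lower together, 4 of 5 tested, with ECP31 at -1.10, AT3G22490 at -1.31, AT5G53260 at -1.22 and AT5G53270 at -0.88 on the log2 scale. The AT5G53270 call was lost without Col-0 pool 2 or 3.

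RAB18 had 19780.4, 23912 and 22169 CPM in dog1-4 pools, against 34681, 39970.4 and 35804 CPM in Col-0 pools (log2 fold change of -0.75 ± 0.20, adjusted p = 0.0162), a call lost without any 1 of the 3 Col-0 pools. LEA4-5 (-1.17), AT4G36600 (-1.17), XERO1 (-0.73) and AT1G72100 (-0.54) were also lower. The AT1G72100 call was lost in 10 of 12 alternatives, including without any 1 of the 6 pools, and that of XERO1 without Col-0 pool 1. AT3G15670, the most abundant LEA_4 gene in dry seeds, had 18894, 26572 and 22592 CPM in dog1-4, against 18611, 21290.0 and 22608 CPM in Col-0, and was not called (log2 fold change of 0.12 ± 0.20, adjusted p = 0.812). M10, M17's neighbour, had 6946, 9195 and 8416 CPM in dog1-4, against 7789, 6652 and 8736 CPM in Col-0, and was not called either.

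The 4 higher members were low-level genes. HIRD11 had 244 counts over the 3 dog1-4 pools, against 3 counts over the 3 Col-0 pools, a ratio of 39.4 after division by the totals (95% interval of 13.3 to 193, exact, for counting error only). ERD14 had 272 counts, against 5 in Col-0, a ratio of 26.4 (11.2 to 81.9), and LEA26 129 counts, against 14 in Col-0, a ratio of 4.47 (2.57 to 8.40). The 3 genes were called with adjusted p-values of 1.89e-06, 9.93e-07 and 0.000508. DI21 had 64.3, 50.2 and 46.3 CPM in dog1-4, against 16.9, 27.8 and 36.9 CPM in Col-0 (log2 fold change of 0.98 ± 0.24, adjusted p = 0.00814), a call lost without Col-0 pool 1.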

How the data were processed

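Values are deposited raw UMI counts per gene and seed, and counts per gene and dry pool. The authors aligned 3′ end reads with STAR 2.7.8a to TAIR10 and counted unique molecules per gene by strand, for dry pools with UMI-tools 1.1.0 and HTSeq 0.11.3. Each count is 1 transcript end, so CPM does not depend on gene length. Members and gene lists were chosen with earlier results of these data known.

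Seeds with under 5000 genic UMIs were left out and the others summed per library. Tests covered genes that averaged 1 UMI or more per seed, in the time course only those with a correlation of at most 0.3 with UMIs outside genic transcripts (8074 genes), in the genotype experiment without that limit (11019). Dry pools were filtered with filterByExpr (9493). Groups of an experiment shared 1 fit in edgeR 4.0.16 (quasi-likelihood test, TMM factors, Benjamini-Hochberg adjustment, R 4.3.3), in which genes past a log2 fold change of 1 with an adjusted p below 0.05 were called (in dry pools by the adjusted p alone). CPM values of libraries are TMM-scaled, and those of seeds and all shares are not. The 3 experiments were normalized separately. SE is the log2 fold change divided by the root of F. Residual variances came from sctransform 0.4.2, and co-expression used genes that averaged 5 UMIs or more per seed. The tests were tested on simulated data. Alternatives were RLE factors, library totals, DESeq2 1.42.0, other filters, a minimum of 10000 UMIs, the groups compared alone, a replicate block, thinning and leaving out each library.

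Named are the 4 most abundant members of each family, up to 3 called members per direction and comparison with the largest fold, and members with a residual variance over 4; LEA7 was added after its values were seen. The lists of storage and oil body genes, maturation regulators, endosperm and green seedling markers served as background. Intervals cover counting error only.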

Additional observations from a re-analysis of the deposited data

Results flagged for a closer look

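For 8 LEA genes the change between 3d and 7d24h differed between dog1-4 and Col-0 in the interaction test (edgeR's quasi-likelihood test, adjusted over all genes), and all 8 differences were negative. The SMP gene AT5G53270 had a log2 fold change at 7d24h against 3d of -4.04 in dog1-4 and -1.64 in Col-0, a difference of -2.39 ± 0.46 (SE, adjusted p = 0.0154). The LEA_4 gene AT2G42560 had a log2 fold change at 7d24h against 3d of -3.57 in dog1-4 and -1.21 in Col-0, a difference of -2.36 ± 0.54 (SE, adjusted p = 0.0281). The SMP gene RAB28 had a log2 fold change at 7d24h against 3d of -2.36 in dog1-4 and -0.68 in Col-0, a difference of -1.67 ± 0.41 (SE, adjusted p = 0.035). The LEA_4 gene AT3G17520 had a log2 fold change at 7d24h against 3d of -2.46 in dog1-4 and -0.94 in Col-0, a difference of -1.52 ± 0.35 (SE, adjusted p = 0.0283). The dehydrin gene AT2G21490 had a log2 fold change at 7d24h against 3d of -2.60 in dog1-4 and -1.08 in Col-0, a difference of -1.52 ± 0.35 (SE, adjusted p = 0.0291). The dehydrin gene AT4G39130 had a log2 fold change at 7d24h against 3d of -2.10 in dog1-4 and -0.68 in Col-0, a difference of -1.41 ± 0.29 (SE, adjusted p = 0.018). The LEA_4 gene AT2G18340 had a log2 fold change at 7d24h against 3d of -1.14 in dog1-4 and 0.17 in Col-0, a difference of -1.31 ± 0.35 (SE, adjusted p = 0.049). The LEA_4 gene AT1G72100 had a log2 fold change at 7d24h against 3d of -1.44 in dog1-4 and -0.26 in Col-0, a difference of -1.18 ± 0.29 (SE, adjusted p = 0.0346). None of the 8 calls was kept under every alternative.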

How the results depend on the processing

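Of the tests of single members under the alternatives, 6387 kept their side of the threshold, 205 lost a call, 185 gained a call and 2 reversed. Direction was compared only for members called in the main fit, so that members not called may have changed sign. Under the correlation limit of 0.3 in the genotype experiment, AT2G42560 at 7d24h against 3d in Col-0 had 0.30 (adjusted p = 0.537, edgeR's quasi-likelihood test) and ERD14 in dog1-4 0.054 (adjusted p = 0.968). That limit left 4 members called between dog1-4 and Col-0 at 7d24h, 1 at 7d24h against 3d in Col-0, 4 in dog1-4 and 2 in the interaction, with 7 members tested. Library totals gave 9 at 7d24h against 7d, 7 at 7d24h against 3d in Col-0 and 16 in the interaction. DESeq2 gave 1 at 5d against 3d, 2 between genotypes at 3d and 14 in the interaction. The filter of edgeR alone gave 21 at 3d against 1d, 27 at 7d against 5d and 3 in 7dPS against 7d, and no filter gave 23, 27 and 3, with 1 at 5d against 3d. Fitting only the groups compared gave 0 between genotypes at 3d, and leaving out the 8 seeds of dog1-4 3d library 3, chosen after seeing the data, gave 16 in the interaction. Apart from these, counts of all calls stayed within 1.5 times, and the cause of the changes was not tested. The share of all genes called was not set beside the counts of the alternatives, so that they describe only how far the calls moved.

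With the replicate block, 1 member was called at 5d against 3d and 14 in the interaction, and the other counts of all calls stayed within 1.5 times. Same-numbered libraries had deviations that correlated at 0.07 on average in the time course (-0.13 to 0.35), 0.12 in the genotype experiment (-0.23 to 0.47) and -0.07 in dry pools, so the numbers were not taken as pairs.

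Leaving out single libraries gave 23 to 25 calls at 1d against 1h, 5 to 8 at 3d against 1d, 0 to 2 at 5d against 3d, 2 to 3 at 7d against 5d, 13 to 17 at 7d24h against 7d, 22 to 23 at 7d against 1h and 0 to 2 in 7dPS. Between genotypes it gave 0 to 4 at 3d, 15 to 23 at 7d24h and 12 to 17 in dry pools, at 7d24h against 3d 8 to 18 in Col-0 (8 without Col-0 7d24h library 3) and 26 to 32 in dog1-4, and 0 to 21 in the interaction. For residual variances over 4 the numbers were 0 to 1 at 1h, 0 to 3 at 3d, 0 to 1 at 7d, 0 to 3 in dog1-4 at 3d, 1 to 4 in Col-0 at 7d24h and 22 to 25 in dog1-4 at 7d24h. Thinned to 5000 UMIs, 1 member at 1d, 1 at 3d, 0 at 7d, 0 at 7d24h, 0 in dog1-4 at 3d, 0 in Col-0 at 7d24h and 1 in dog1-4 at 7d24h stayed over the limit, and without the covariate of UMIs outside genic transcripts 0 did at 7d.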
